A study of Mus musculus with 4 samples.

Results

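The replicative helicase genes described here are Mcm2, Mcm3, Mcm4, Mcm5, Mcm6 and Mcm7, Gins1, Gins2 and Gins3, and Cdc45. These 10 genes were taken by platform gene symbol, each from the probe set naming that gene alone with the highest mean over the 4 arrays, out of 22180 genes measured in that way. Each of the 10 had only 1 such probe set. RNA came from sorted bone marrow LSK cells, which lack lineage markers, carry Sca-1 and c-Kit, and include blood stem cells as well as early progenitors. The mice were C57/B6 males, 4 months old. A first pair of arrays came from AMKO mice, at day 8 after a single injection of 5FU (5-fluorouracil, 150 mg/kg) and without it (basal, day 0). The other pair came from Ctrl mice at the same 2 times. Each group was 1 Affymetrix array, so no value has a replicate error. AMKO is given as a genotype name with no expansion, gene or driver, and the number of mice behind an array is not stated in the labels.

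Mcm2 to Mcm7 form the ring that is loaded onto DNA at replication origins before S phase, in an inactive state. When an origin fires, Cdc45 and the GINS complex join the ring, and the whole assembly, the CMG helicase, unwinds the parental strands ahead of the polymerases. Transcription of these genes in cycling cells is known to depend on E2F factors. In blood, aged mouse stem cells are known for low MCM levels and replication stress, and mice with reduced Gins1 dosage are known for poor stem cell proliferation after marrow ablation. 5FU is a pyrimidine analog that kills dividing cells, and the series design gives it as a means to activate stem cells.

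The promoters of the helicase genes are shown as a description, and a link between their letters and the day 8 differences given below was not tested. RefSeq promoter windows on GRCm38.p6, from 250 bases before to 50 bases after each annotated start, were in the table used here for 7 of the 10 genes (8 windows, since Mcm7 has 2 starts). The E2F-type letters searched, on either strand, were TTCCCGC and its relatives, which were TTGGCGC as well as the strings TTCGCGC and also TTGCCGC. They were in the windows of 5 of these 7 genes, against 9.57% of all 32851 windows, 10.9% of all 27025 genes in the table and 17.9% of the 11022 of them that passed the expression floor given below. The 5 windows below, 1 per gene with a match, run 5′ to 3′ on the gene's strand, and capitals mark the E2F-type letters.
Mcm3 (chr1:20820263-20820562, minus strand): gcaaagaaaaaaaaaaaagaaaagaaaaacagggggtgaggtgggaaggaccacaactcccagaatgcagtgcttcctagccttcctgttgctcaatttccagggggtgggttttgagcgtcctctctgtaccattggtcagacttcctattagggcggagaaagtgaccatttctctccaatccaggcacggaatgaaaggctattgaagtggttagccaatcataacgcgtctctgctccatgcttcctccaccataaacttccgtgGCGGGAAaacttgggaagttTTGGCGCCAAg
Mcm5 (chr8:75109259-75109558, plus strand): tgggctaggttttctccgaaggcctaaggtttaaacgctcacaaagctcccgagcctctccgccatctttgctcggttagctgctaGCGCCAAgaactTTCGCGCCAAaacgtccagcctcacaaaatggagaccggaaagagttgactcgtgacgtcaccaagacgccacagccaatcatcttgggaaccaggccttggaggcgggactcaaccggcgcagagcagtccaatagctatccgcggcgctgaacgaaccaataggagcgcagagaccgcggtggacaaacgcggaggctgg
Mcm6 (chr1:128359656-128359955, minus strand): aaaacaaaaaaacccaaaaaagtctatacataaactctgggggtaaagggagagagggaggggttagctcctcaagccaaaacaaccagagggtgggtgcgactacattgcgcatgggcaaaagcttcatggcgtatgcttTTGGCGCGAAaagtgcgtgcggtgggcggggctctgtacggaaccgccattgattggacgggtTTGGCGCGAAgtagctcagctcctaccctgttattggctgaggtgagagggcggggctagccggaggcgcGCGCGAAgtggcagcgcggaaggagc
Mcm7 (chr5:138171834-138172133, minus strand): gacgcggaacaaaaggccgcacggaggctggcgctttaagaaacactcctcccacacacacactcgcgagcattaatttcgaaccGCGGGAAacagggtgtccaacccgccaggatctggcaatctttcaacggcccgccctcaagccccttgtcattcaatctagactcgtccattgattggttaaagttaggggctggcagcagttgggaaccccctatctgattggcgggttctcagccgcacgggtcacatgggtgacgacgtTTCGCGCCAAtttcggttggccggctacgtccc
Gins3 (chr8:95633309-95633608, plus strand): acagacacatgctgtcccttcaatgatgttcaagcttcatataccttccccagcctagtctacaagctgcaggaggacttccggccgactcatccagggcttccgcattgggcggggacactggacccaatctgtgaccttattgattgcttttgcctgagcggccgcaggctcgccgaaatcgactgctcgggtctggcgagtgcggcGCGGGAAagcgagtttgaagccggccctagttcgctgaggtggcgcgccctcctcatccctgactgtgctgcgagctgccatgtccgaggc
In Mcm6 the run TTGGCGCGAA, in which TTGGCGC overlaps a reverse-strand TTCGCGC, occurred at 2 places, with a further match after the start. Mcm5 and the upstream Mcm7 start both held the run TTCGCGCCAA. Mcm3 held the palindromic run TTGGCGCCAA after its start. The second Mcm7 start had 1 match, and the windows of Mcm2 and Cdc45 had none. A match is a string of letters and not a measured binding site.

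**Figure D1:**
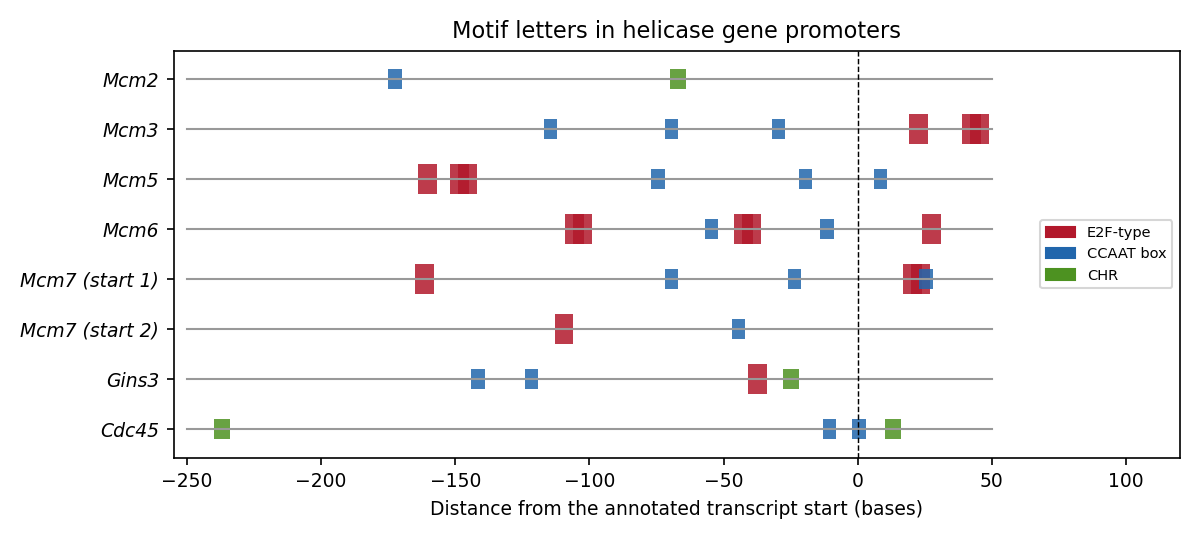
Positions of motif letters in the 8 promoter windows of 7 helicase genes, in bases from the annotated transcript start (position 0, dashed line). Boxes mark E2F-type letters (red), CCAAT or its reverse complement (blue) and TTTGAA or its reverse complement (green). E2F-type boxes lie in 6 windows, on both sides of the start, and CCAAT boxes lie in all 8.

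CCAAT letters, the CCAAT box bound by NF-Y, were in the windows of all 7 genes, against 41.1% of genes in the table and 41.7% of those that passed the floor (37.4% of all windows). TTTGAA, the letters of the CHR element of genes expressed late in the cell cycle, were in Mcm2, Gins3 and Cdc45, or 3 of 7 genes, against 20.2% of genes in the table and 14.3% of those that passed the floor. In the upstream Mcm7 window 1 CCAAT match overlapped the E2F-type run.

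How the helicase genes in LSK cells at day 8 after 5FU compared with those at basal was read in each genotype. All 10 were higher at day 8 in both genotypes (37.0% of genes were), and in each gene the lower of the 2 day 8 arrays lay above the higher of the 2 basal arrays. That pattern held for 32.0% of the 14061 genes that passed a floor on low values (a gene's highest value had to reach 5.475, which is the median over the whole table). At least a 1.5-fold difference in both genotypes was found for 10 of the 10, against 6.59% of those genes. The helicase genes had a median log2 difference of 0.98 in AMKO and 1.22 in Ctrl, beside medians of 0.03 and 0.01 over all genes that passed. All 10 were above the floor on each array, so none entered through the day 8 arrays alone. Values are log2 intensities, and levels are compared only within a gene.

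**Figure D2:**
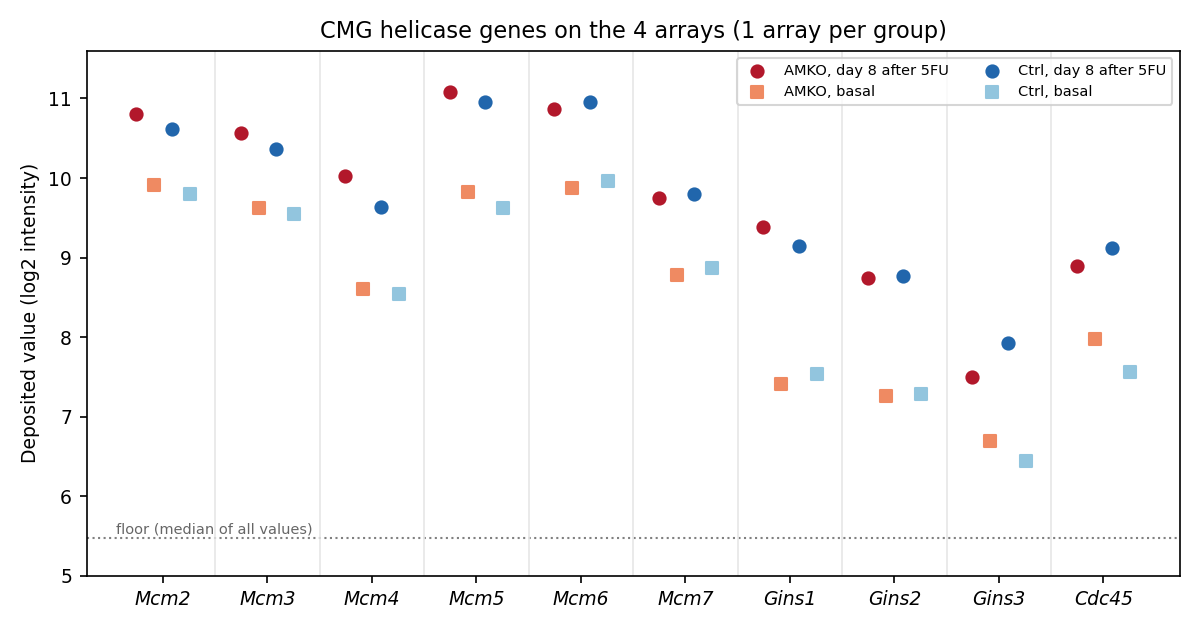
Deposited log2 intensities of the 10 helicase genes on each array (1 array per group, no error bars). Circles are day 8 after 5FU, squares are basal, red tones are AMKO and blue tones Ctrl, and the dotted line is the floor at 5.475. In each gene both circles lie above both squares.

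Counted at 2-fold, 4 of the 10 genes were higher in AMKO (Mcm4, Mcm5, Gins1 and Gins2) and 7 in Ctrl (the same 4 with Mcm6, Gins3 and Cdc45). The background shares were 4.69% and 5.02% of genes, and 1.96% in both genotypes at once. Gins1 alone reached 3-fold in either genotype, beside 0.974% of genes in AMKO and 2.06% in Ctrl. These counts rest on values close to the 2-fold line: centring each array on its median gave an AMKO count of 9 and a Ctrl count of 7, quantile normalization gave 4 and 5, and median centring moved the median of all genes in AMKO to 0.15. None of the 10 was lower in either genotype, where 3.55% of genes in AMKO and 4.46% in Ctrl were at least 2-fold lower.

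The 2 genotypes together gave 2 arrays at day 8 and 2 at basal. An additive limma fit over all 4 arrays, which takes the difference between the genotypes' 5FU responses as error, gave standard errors of 0.10 to 0.23 for the helicase genes. Unadjusted p was under 0.05 for 10 of the 10, beside 3907 of 14061 genes (27.8%). After Benjamini-Hochberg adjustment over all genes the 10 had p between 0.0697 and 0.0925 in the same limma fit, and 0 of them passed, as did 0 of all genes (0.0%). The fit was also run on simulated data with 200 of 14061 genes changed and no genotype difference. There it called 2.4% of genes with a true log2 difference of 1 and 69.2% at 2. These shares depend on how many genes change, which is not known for the real arrays. A count of 0 does not show that a difference of the size seen here is absent. With robust estimation limma called 10 of the 10 and 9.35% of all genes. It called 8 of them with quantile normalization (6.74% of genes), 3 with median centring (1.15%) and 9 with a floor at the 75th percentile (15.7%). With no trend, with no floor or with averaged probe sets, limma called 0 of the 10 and 0 of all genes. The call therefore depends on the setting. With 1 array left out, a fit with the genotype term has no residual degree of freedom, so a treatment-only model was used. It has 1 array in an arm, assumed to vary like the other arm, and it called 4 of the 10 without the AMKO day 8 array (3.28% of genes) and 0 without any of the other 3. With 1 residual degree of freedom this fit does not measure a spread between mice.

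Among the MCM ring genes, Mcm2, whose protein also carries parental histones H3 and H4, had log2 values of 10.80 at day 8 and 9.91 at basal in AMKO, against 10.61 and 9.80 in Ctrl. Mcm3 had 10.57 and 9.62 in AMKO, against 10.37 and 9.55 in Ctrl. These were the smallest mean responses of the 10, at 0.85 and 0.89 on the log2 scale, or 1.80-fold and 1.85-fold. Mcm5, whose subunit forms the gate of the ring with Mcm2, had 11.08 and 9.82 in AMKO, against 10.96 and 9.62 in Ctrl. Its mean difference of 1.30 was the largest in the ring, with an additive standard error of 0.10 (limma adjusted p 0.0697).

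Mcm4, Mcm6 and Mcm7 form the core that can unwind DNA on its own in a test tube. Mcm4 had 10.02 at day 8 and 8.61 at basal in AMKO, against 9.64 and 8.54 in Ctrl, and was 2.66-fold and 2.14-fold higher. Mcm6 had 10.87 and 9.88 in AMKO, against 10.96 and 9.96 in Ctrl, which is 1.99-fold and 2.0-fold. The 2 genotypes thus fell on opposite sides of the 2-fold line for Mcm6 with responses that differed by 0.01. Mcm7 had 9.75 and 8.78 in AMKO, against 9.80 and 8.87 in Ctrl, differences of 0.97 and 0.93. Across the ring, differences ran from 0.89 to 1.41 in AMKO and from 0.81 to 1.34 in Ctrl. Mcm4 and Mcm5 were the highest 2 of the ring in both genotypes.

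Mcm7 is the host gene of a microRNA cluster in 1 of its introns. Another 2 probe sets were annotated to Mcm7 together with a microRNA of that cluster and were not used for the gene. The one shared with Mir25 had 6.15 at day 8 and 6.32 at basal in AMKO, against 6.26 and 6.07 in Ctrl. Its differences of -0.17 and 0.19 had opposite signs and were small beside those of the Mcm7 probe set. The one shared with Mir93 lay under the floor on all 4 arrays.

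Gins1 gave the largest difference of the 10, and the 3 GINS genes ran from 0.81 to 1.97 in AMKO and from 1.48 to 1.61 in Ctrl. Gins1, which encodes the PSF1 subunit, had 9.38 at day 8 and 7.41 at basal in AMKO, against 9.15 and 7.54 in Ctrl. It was 3.92-fold higher in AMKO and 3.05-fold in Ctrl, the largest response of the 10 in each genotype, and ranked 109 of 14061 genes by its mean difference of 1.79. Gins2 (PSF2) had 8.74 and 7.26 in AMKO, against 8.77 and 7.29 in Ctrl, a 2.79-fold difference in each genotype. Gins3 (PSF3) had 7.5 and 6.69 in AMKO, against 7.93 and 6.44 in Ctrl. Its response was 0.81 in AMKO and 1.49 in Ctrl, the largest gap between genotypes among the 10.

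Gins4, the SLD5 subunit that completes the GINS complex and stands outside the 10 genes, had 9.91 at day 8 and 9.28 at basal in AMKO, against 9.71 and 9.31 in Ctrl. Its differences of 0.63 and 0.40 were smaller than those of the other 3 GINS genes in each genotype. Probe sets can differ in how far they compress a difference, and this was not tested.

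Cdc45, which joins the ring at origin firing, had 8.89 at day 8 and 7.97 at basal in AMKO, against 9.12 and 7.56 in Ctrl. It was 1.89-fold higher in AMKO and 2.95-fold higher in Ctrl. In both genotypes the day 8 value was clear of the basal values by at least 0.92. Cdc45 and Gins3 were the 2 genes with a smaller response in AMKO by more than 0.5.

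**Figure D3:**
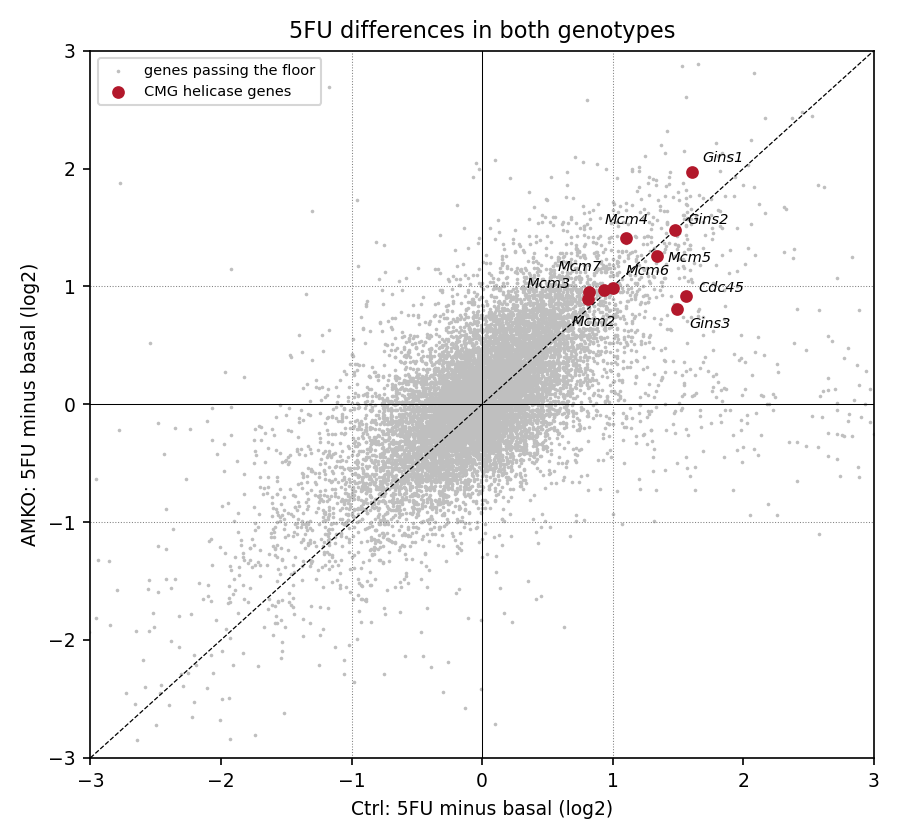
Log2 difference between day 8 after 5FU and basal in AMKO (vertical axis) against that in Ctrl (horizontal axis) for genes that passed the floor (grey) and the 10 helicase genes (red). The dashed line marks equal responses, the dotted lines 2-fold, and 114 genes lie outside the plotted range of 3 on either axis. The helicase genes lie in the upper right, with Cdc45 and Gins3 below the dashed line.

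Whether the 5FU response of the helicase genes differed between genotypes has no test with 1 array per group. The AMKO response minus the Ctrl response had a median of 0.02 over the 10, beside 0.05 over all genes. It was -0.68 for Gins3 and -0.64 for Cdc45, against 0.36 for Gins1 and 0.31 for Mcm4, and within 0.13 of 0 for the other 6. None reached 2-fold, which 5.5% of genes did in either direction, and the central 95% of all genes ran from -1.13 to 1.0. The Ctrl day 8 array was high in neutrophil markers and the Ctrl basal array in skeletal muscle markers, as given below. The part of these signals in the gaps between genotypes was not tested.

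AMKO and Ctrl were also compared at each time. At day 8 the helicase genes differed by a median of 0.045 (0.06 over all genes), from -0.43 for Gins3 to 0.38 for Mcm4. Of the 10, 5 were higher and 5 lower in AMKO, beside 8290 higher and 5552 lower of 14061 genes. At basal the median was 0.07 (0.00 over all genes), from -0.13 for Gins1 to 0.41 for Cdc45. None of the 10 was 2-fold different at either time. The background at day 8 was 0.74% of genes 2-fold higher and 2.63% lower, and at basal 0.228% and 0.697%. Within the ring, Mcm2, Mcm3, Mcm4 and Mcm5 were above Ctrl by 0.12 to 0.38 at day 8, whereas Mcm6 and Mcm7 were below by at most 0.09. At basal the ring values lay between -0.09 and 0.20, and median centring turned the sign of Mcm3 and Mcm4 there. The day 8 and 5FU comparisons share arrays, so their values are given side by side and not as separate evidence. Both Ctrl arrays carried markers of other cells, given below, and their part in these AMKO minus Ctrl values was not tested.

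**Figure D4:**
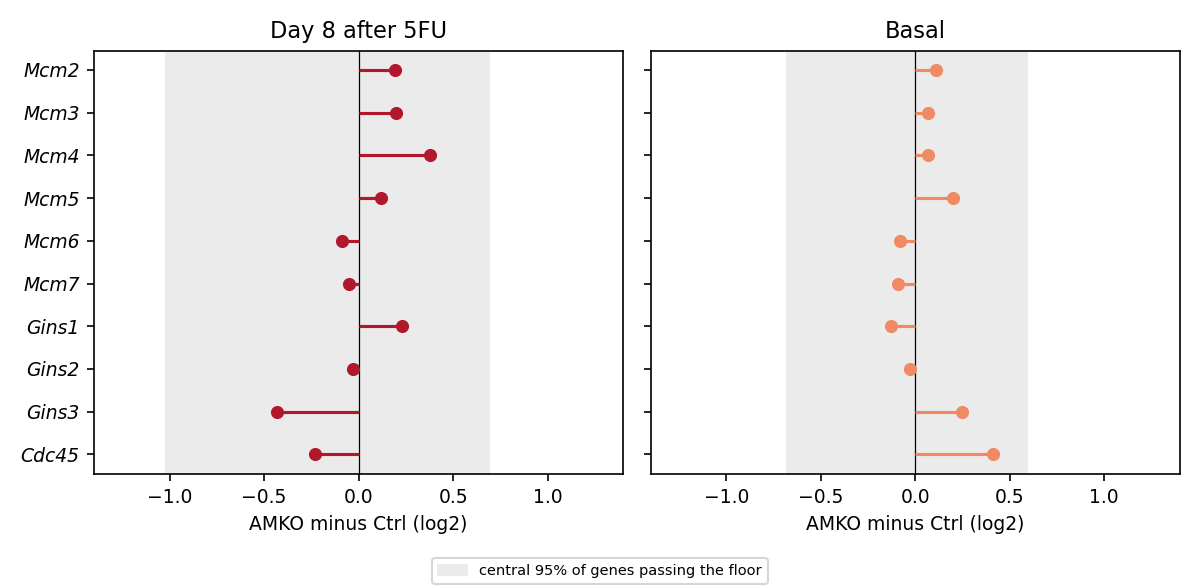
AMKO minus Ctrl log2 difference of each helicase gene at day 8 after 5FU (left) and at basal (right), 1 array per group. The grey band is the central 95% of genes that passed the floor, and all 10 genes lie inside it at both times. Gins1, Gins3 and Cdc45 lie on opposite sides of 0 at the 2 times.

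Beside the 10 genes, 57 other replication genes in 6 lists passed the floor, with the helicase subunit gene Gins4 among them. Of these, 18 in AMKO and 16 in Ctrl were at least 2-fold higher at day 8 (background 4.69% and 5.02%), and 0 were 2-fold lower in either genotype. Their medians were 0.75 and 0.63, below the helicase medians. At 1.5-fold in both genotypes the count was 28 of 57, set beside 10 of 10 helicase genes and 6.59% of all genes. The lists were chosen with earlier results of these data known and are given as counts. In each list, the highest and lowest genes named are those by the mean of the AMKO and Ctrl differences.

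Factors that load the ring had medians of 0.62 in AMKO and 0.77 in Ctrl, with 4 and 3 of 9 genes 2-fold higher. Gmnn, the geminin inhibitor of loading, was higher by 1.37 and 1.39. The loader Cdt1 was higher by 1.18 and 1.0. The loader Cdc6 had 8.10 at day 8 and 7.48 at basal in AMKO, against 8.24 and 6.47 in Ctrl, so its genotype gap lay at basal. Orc4, of the origin recognition complex, was the lowest of the list with 0.13 and 0.14. Orc5, of the same complex, had 7.47 at day 8 and 7.64 at basal in AMKO, against 8.12 and 7.61 in Ctrl, and is named after its values were seen because its differences of -0.17 and 0.51 had opposite signs.

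Genes that activate the loaded ring had medians of 0.65 and 0.70, with 5 and 4 of 11 genes 2-fold higher. Dbf4, the activating subunit of the Cdc7 kinase that phosphorylates the ring, was higher by 1.85 in AMKO and 1.41 in Ctrl. Mcm10 (1.29 and 1.55) and Ticrr, or Treslin (1.26 and 1.48), which act when Cdc45 and GINS join, followed. Donson, which helps bring GINS to the ring, had 0.06 and 0.48, tied for the lowest mean with the kinase gene Cdk2 (0.31 and 0.23), which is named for that tie.

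Fork partners of the helicase had medians of 0.83 and 0.96, with 4 and 5 of 12 genes 2-fold higher. Tipin, of the fork protection complex, had the largest mean, at 2.15 and 1.55. Prim2, the large primase subunit, was higher by 1.88 and 1.27. Wdhd1, which ties the helicase to polymerase alpha, was higher by 0.98 and 1.20. Pole4, an accessory subunit of polymerase epsilon, was the lowest at 0.75 and 0.30.

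For strand synthesis and maturation the medians were 0.62 and 0.53, and 2 and 3 of 15 genes were 2-fold higher. The flap endonuclease gene Fen1 (1.58 and 1.24) and the single-strand binding genes Rpa1 (1.12 and 1.05) and Rpa3 (0.95 and 1.11) led. Chaf1b, a chromatin assembly factor subunit, had 0.57 in AMKO and -0.06 in Ctrl. For unloading of the helicase at termination the medians were 0.86 and 0.33, and 2 and 1 of 6 genes were 2-fold higher. Lrr1, which directs a ubiquitin ligase to Mcm7, was higher by 1.5 and 1.76. Its ligase partner Cul2 was higher by 1.05 and 0.32. The Vcp cofactor gene Faf1 had 0.81 and 0.63, and the cofactor gene Ubxn7 was the lowest at 0.16 and -0.06.

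Relatives and partners of the 10 genes were uneven. Of the 5 listed, Gins4 is itself a subunit of the helicase, and Mcmdc2 lay below the floor. Mcm8, a homologous recombination helicase, was higher by 1.02 and 0.91. Its partner Mcm9 had 7.36 at day 8 and 7.33 at basal in AMKO, against 7.44 and 7.37 in Ctrl, differences of 0.03 and 0.07. Mcmbp, a chaperone of the MCM proteins, was higher by 0.70 and 0.63.

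**Figure D5:**
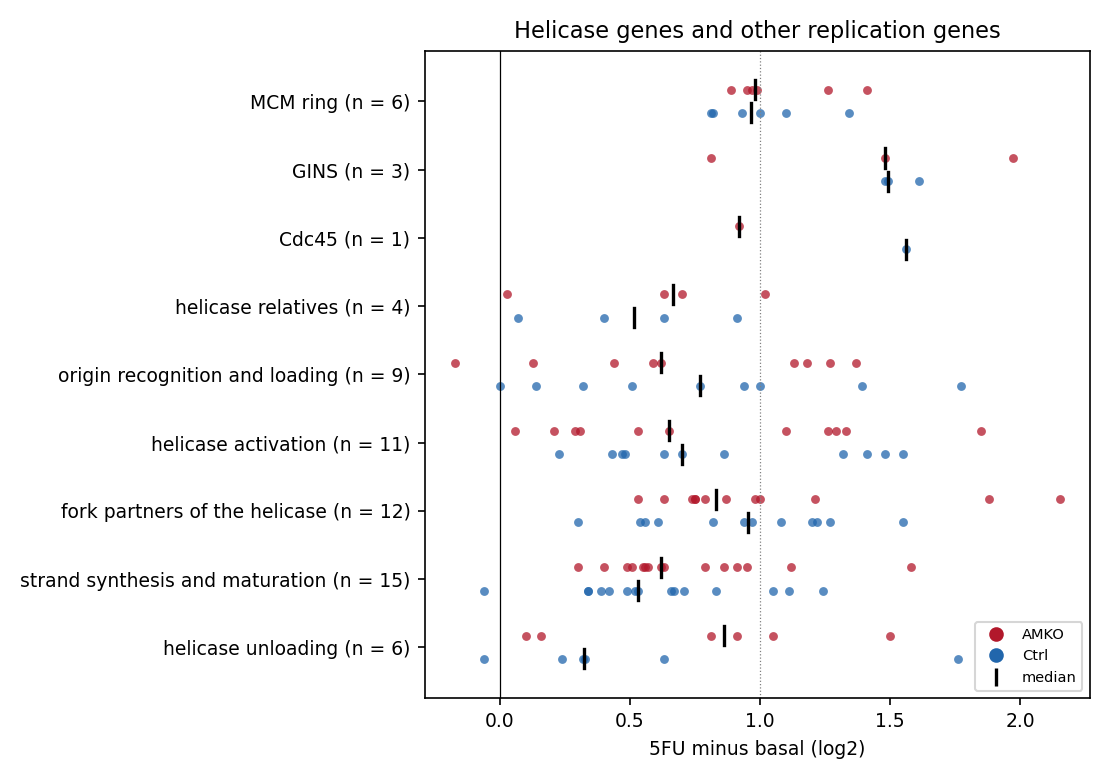
Log2 difference between day 8 after 5FU and basal for each gene of the helicase groups and the 6 other replication lists, in AMKO (red) and Ctrl (blue), with black bars at list medians. The dotted line marks 2-fold. The GINS medians lie at 1.48 and 1.49, and the ring medians at 0.98 and 0.97.

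Mitotic genes, listed for context, had medians of 1.51 in AMKO and 1.55 in Ctrl, above the helicase medians, with 19 of 19 genes 2-fold higher in each genotype. The cytokinesis factor gene Ect2 (3.10 and 2.26), the kinesin gene Kif20a (1.93 and 1.94) and the kinetochore motor gene Cenpe (1.64 and 1.82) were highest, and Nusap1 lowest (1.06 and 1.14). The inhibitors of the cell cycle had a median of 0.10 in AMKO and 0.43 in Ctrl, where 2 and 0 of the 8 were 2-fold higher. Rbl1, or p107, was higher by 1.24 and 0.59, Cdkn1a by 1.10 and 0.40, and Cdkn2d by 0.78 and 0.46. Rbl2, or p130, which holds E2F targets silent in resting cells, was lower, at -0.30 and -0.68. On a bulk array, more cycling cells and more RNA per cell cannot be told apart.

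The 8 genes whose profile over the 4 arrays lay nearest the helicase mean profile were Cdca2, Ckap2, Ablim1, Cdc20, Cenpk, S100a4, Cib1 and Spag5. Symbols of predicted genes, RIKEN and similar clones, microRNAs and snoRNAs were left out of this ranking. The measure was the root mean square distance between values centred on each gene's mean, which ran from 0.0154 for Cdca2 to 0.0533 for Spag5 on the log2 scale. Of the helicase genes themselves, Mcm5 lay nearest that mean (0.0771) and Gins1 farthest (0.317). Cdca2 had 9.04 at day 8 and 7.88 at basal in AMKO, against 9.05 and 7.82 in Ctrl. With 4 arrays, near profiles are a description only.

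Markers of stem cells and of other cells differed between arrays. Kit, the c-Kit sort marker, was high on all 4, at 11.16 at day 8 and 11.87 at basal in AMKO, and 11.08 and 11.84 in Ctrl, while Ly6a, the Sca-1 gene, had no probe set of its own. Of the 8 LSK and stem cell markers measured, 6 were lower at day 8 in both genotypes and 2 were higher, by any amount. Over all genes, 37.0% were higher in both. Of 14061 genes, 6584 were lower in AMKO and 6880 in Ctrl, and the share lower in both was not counted. Procr, the stem cell marker EPCR, had 8.13 at day 8 and 8.83 at basal in AMKO, against 7.39 and 9.03 in Ctrl. Cd34, a progenitor and stem cell marker, had 10.36 and 9.72 in AMKO, against 10.38 and 9.35 in Ctrl. Flt3, a multipotent progenitor marker, was also higher at day 8, and Meis1, Slamf1 and Hlf were lower with Kit and Procr. Mecom, the smallest, had 9.72 and 9.76 in AMKO, against 9.31 and 9.8 in Ctrl, and median centring turns its sign in AMKO. These shifts accompany the helicase differences in AMKO as in Ctrl, and their part in them was not tested. The 10 mature neutrophil markers lay between 9.85 and 12.29 on the Ctrl day 8 array and between 3.49 and 7.04 on the other 3. The 9 granulocyte-monocyte markers lay between 6.45 and 11.29 (Elane) there, and between 4.62 and 8.61 on the other 3. The 8 B-lineage markers lay between 5.05 (Vpreb1) and 11.86 (Ighm) there, and between 4.52 and 8.05 on the other 3. The 5 erythroid markers measured lay between 6.38 and 8.27 (Car1) there, and between 4.23 and 7.71 on the other 3. The Ctrl day 8 array had the highest value for 8 of the 9 granulocyte-monocyte, 7 of the 8 B-lineage and 4 of the 5 erythroid markers, with Vpreb1 the B-lineage exception. The share of all genes highest on that array was not counted. The 7 T and NK cell markers stayed at or below 6.31 on every array, and 4 of them were highest on the Ctrl day 8 array. The 8 skeletal muscle markers lay between 7.65 and 10.16 on the Ctrl basal array, and between 4.19 and 9.23 on the other 3. Their part in the Ctrl values was not tested. In AMKO the helicase genes were higher by 0.81 to 1.97, with 10 of 10 at least 1.5-fold (15.4% of genes). In Ctrl, 10 of 10 were also at least 1.5-fold higher (11.9% of genes). Crossing the genotypes, a comparison added after the data were seen, gave 8 of 10 at least 2-fold higher for AMKO day 8 against Ctrl basal (3.66% of genes), and 8 of 10 for Ctrl day 8 against AMKO basal (5.87%). Each crossed pair holds a Ctrl array and reuses the same 4 arrays, so these counts are not separate evidence.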

How the data were processed

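Affymetrix expression values of 4 arrays were used, with the median of all probe sets between 5.43 and 5.55. The authors' deposited table holds 1 value per probe set, read as log2 because values lay between 1.99 and 13.43. Per the labels' protocols, RNA was column-extracted and biotin-labelled. For background correction, normalization and summarization, the method is not given in the sources used here. Values were used without further scaling, and 1 array per group limits precision.

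Of 34472 probe sets, 23521 named 1 gene. For 23328 of these the symbol was taken from RefSeq (GRCm38.p6) by Entrez identifier, and for the others from the platform table. A gene took its probe set with the highest mean, and 14061 of 22180 genes passed the floor. Differences of 1 array and 1 array have no test. The additive fit used limma 3.58.1 in R 4.3.3 (lmFit, eBayes with trend, terms for genotype and treatment), two-sided, with Benjamini-Hochberg adjustment at 0.05, and was tested on simulated data. Each of the 20 draws had 200 of 14061 genes changed and no genotype difference, with noise drawn from the prior fitted to the real data. The fit called 2.4% of genes given a log2 difference of 1, 69.2% at 2, and 0.0664% of unchanged genes. Promoter letters were searched on both strands of RefSeq windows.

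Named genes were the 10 helicase genes, their listed relatives, the 3 highest and 1 lowest of each other list by mean 5FU difference, and the 8 nearest profiles. The genes and lists were chosen with earlier results of these data known. Alternatives were quantile normalization, median centring, averaged probe sets, other floors and folds, limma with robust estimation or with no trend, and arrays left out. Protein sequences were not used here.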

Additional observations from a re-analysis of the deposited data

Results flagged for a closer look

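AMKO minus Ctrl differences had opposite signs at the 2 times for 3 helicase genes, with 1 array per group and no test of the difference. Over all genes, 8290 were higher and 5552 lower in AMKO at day 8, and 6949 and 6885 at basal. The share of all genes with opposite signs at the 2 times was not counted, so 3 is not set against a background. Gins1 was at 0.23 at day 8 and -0.13 at basal. Gins3 was at -0.43 at day 8 and 0.25 at basal, and Cdc45 at -0.23 and 0.41, and these signs were the same with quantile normalization and median centring. The 5FU difference had opposite signs in the 2 genotypes for 3 of the 57 other replication genes, also not tested. Over all genes, 37.0% were higher in both genotypes, and the share with opposite signs was not counted. Orc5 was at -0.17 in AMKO and 0.51 in Ctrl, Chaf1b at 0.57 and -0.06, and Ubxn7 at 0.16 and -0.06. Both Ctrl arrays carried markers of other cells, as given above, and their part in these opposite signs was not tested.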

How the results depend on the processing

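All 10 helicase genes stayed higher at day 8 in both genotypes under quantile normalization and median centring. The AMKO count at 2-fold was 4, and became 9 with median centring, 10 at 1.5-fold and 1 at 3-fold. The Ctrl count was 7, and became 5 with quantile normalization and 1 at 3-fold. The AMKO median became 0.807 with quantile normalization and 1.09 with median centring, and the Ctrl median 1.09 (1.093) with quantile normalization. Other replication genes numbered 38 in AMKO and 32 in Ctrl at 1.5-fold (15.4% and 11.9% of all genes). At 3-fold they numbered 3 and 2 (0.974% and 2.06% of all genes). Helicase genes past limma's adjusted threshold numbered 0, but 10 with robust estimation, 8 with quantile normalization, 3 with median centring and 9 with a floor at the 75th percentile. They stayed at 0 with no trend, with no floor and with averaged probe sets. With 1 array left out they numbered 0 to 4 (4 without AMKO day 8), in a treatment-only model with 1 array in an arm, so both the model and the arrays differ from the additive fit. With median centring the AMKO minus Ctrl median at basal was -0.01 in place of 0.07, and the median difference of responses was -0.054 with quantile normalization in place of 0.02. The causes of these shifts were not tested. Crossing the genotypes, an alternative added after the data were seen, gave 8 of the 10 genes 2-fold higher in each crossed pair, from the same arrays. No pairing beyond genotype was possible because each group is 1 array, and the labels carry no replicate numbers. The additive fit already compares 5FU with basal within genotype.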
